A study of Homo sapiens with 18 samples.

Results

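Heat shock proteins and chaperones are the proteins that fold, refold and hold other proteins, and the 10 genes described here encode members of the cytosolic HSP70 family (HSPA8, HSPA1A and HSPA1B), the HSP70 of the endoplasmic reticulum (HSPA5), the cytosolic HSP90 pair (HSP90AA1 and HSP90AB1), the mitochondrial chaperonin pair (HSPD1 and HSPE1), and the partners DNAJB1 and HSPH1. They were chosen by name, as 10 of 20098 protein-coding genes of chromosomes 1 to 22 and X, and each was followed in a window that holds the annotated gene body and 5 kb on both sides in hg19. DRIP-seq maps DNA-RNA hybrids by cutting genomic DNA with restriction enzymes, pulling down the fragments that carry a hybrid with the S9.6 antibody and sequencing them. The cells were HCT116, an established human colorectal carcinoma line, and every sample came from this line grown in the same medium with heat-inactivated serum. Cells were left untreated (NT) or received 10 µM camptothecin (CPT), which traps topoisomerase I on DNA as a cleavage complex, for 5 or 60 min, with 2 biological replicates of each of the 3 treatments. The paper states that cells were harvested and washed after CPT and before lysis, which it counts as a recovery step. The 5 and 60 min are therefore times of treatment and not of lysis. Each replicate gave a DRIP library, a matched library digested with RNase H, an enzyme that removes the RNA strand of a hybrid, before immunoprecipitation, and an input library. The data were the 12 peak lists of the DRIP and RNase H libraries, each called by the authors against its own input. The comparison of treatments addresses where hybrids form after topoisomerase I poisoning, and the RNase H lists measure what the same procedure calls after hybrids have been digested.

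The heat shock response is driven mainly by the transcription factor HSF1, which binds repeats of a short element in the promoters of its targets, whereas HSPA5 is a classical target of the unfolded protein response of the endoplasmic reticulum. HSPA8, HSP90AB1, HSPD1 and HSPE1 are also made at a high rate in unstressed cells, while HSPA1A and HSPA1B are known for their strong induction by stress. Hybrids form where a nascent RNA pairs with its template behind RNA polymerase, and negative supercoiling, which topoisomerase I relaxes, favours their formation.

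The promoters of 5 genes are shown because they were covered by a DRIP peak in more lists than those of the other members. Each sequence runs 5′ to 3′ on the gene's strand from 250 bases before the start of the canonical transcript in GRCh37 (hg19) and is 300 bases long, and capitals mark heat shock element letters, GAANNTTC or TTCNNGAA, searched on both strands and joined where they overlap.
HSPA8 promoter, chr11:122932795-122933094, minus strand: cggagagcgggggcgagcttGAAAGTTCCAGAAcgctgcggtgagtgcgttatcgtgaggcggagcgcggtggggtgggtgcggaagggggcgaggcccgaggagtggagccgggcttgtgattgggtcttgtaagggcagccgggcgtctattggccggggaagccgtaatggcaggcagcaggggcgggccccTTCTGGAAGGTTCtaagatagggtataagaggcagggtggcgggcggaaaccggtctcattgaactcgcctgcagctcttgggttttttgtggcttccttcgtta
HSP90AA1 promoter, chr14:102553332-102553631, minus strand: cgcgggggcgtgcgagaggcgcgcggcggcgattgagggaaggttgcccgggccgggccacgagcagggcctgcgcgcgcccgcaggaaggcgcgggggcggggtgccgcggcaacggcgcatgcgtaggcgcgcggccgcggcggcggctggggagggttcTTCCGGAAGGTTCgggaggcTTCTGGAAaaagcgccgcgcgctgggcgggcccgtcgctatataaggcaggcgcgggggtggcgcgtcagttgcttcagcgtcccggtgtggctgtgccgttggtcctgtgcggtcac
HSPD1 promoter, chr2:198364515-198364814, minus strand: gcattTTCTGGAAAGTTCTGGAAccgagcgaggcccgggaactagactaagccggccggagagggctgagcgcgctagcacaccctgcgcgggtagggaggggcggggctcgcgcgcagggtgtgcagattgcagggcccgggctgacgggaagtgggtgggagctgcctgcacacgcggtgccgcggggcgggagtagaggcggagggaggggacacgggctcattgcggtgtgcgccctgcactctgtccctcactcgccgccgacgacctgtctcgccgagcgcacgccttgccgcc
HSPE1 promoter, chr2:198364853-198365152, plus strand: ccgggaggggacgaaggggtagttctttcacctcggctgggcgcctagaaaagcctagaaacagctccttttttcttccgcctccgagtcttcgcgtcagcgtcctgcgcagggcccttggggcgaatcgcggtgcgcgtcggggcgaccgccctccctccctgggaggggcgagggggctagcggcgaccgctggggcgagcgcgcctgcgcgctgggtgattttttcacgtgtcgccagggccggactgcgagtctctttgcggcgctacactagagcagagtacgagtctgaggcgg
HSPH1 promoter, chr13:31735992-31736291, minus strand: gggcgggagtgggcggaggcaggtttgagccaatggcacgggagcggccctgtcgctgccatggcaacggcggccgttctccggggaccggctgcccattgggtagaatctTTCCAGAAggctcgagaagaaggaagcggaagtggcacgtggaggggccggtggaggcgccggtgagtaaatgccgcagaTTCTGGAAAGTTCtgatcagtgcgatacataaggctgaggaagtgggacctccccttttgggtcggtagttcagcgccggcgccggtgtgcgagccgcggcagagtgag
The run of 3 units, GAANNTTCNNGAA on either strand, was found in the promoters of HSPA8, HSP90AA1, HSPD1 and HSPH1. It stood in 0.358% of the 20098 promoters of this length, 72 in all. The pair GAANNTTC alone was in 5.51% of promoters, and those of DNAJB1, HSPA1A and HSPA1B also held it. The pair TTCNNGAA was in 6.28% of promoters. The letters of neither pair were found in the 300-base promoters of HSPA5, HSP90AB1 and HSPE1. Over the first 1000 bases after the start, the members had a median GC content of 61.4% and a median GC skew, the excess of G over C on the gene's strand, of 0.11, against 58% and 0.0455 over all genes. These matches and contents describe letters and were not tested.

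The lists differed in length in a way that touches every result. On chromosomes 1 to 22 and X, the DRIP lists of replicate 1 held 30314 to 41668 peaks and those of replicate 2 held 52967 to 72878, and the 60-min list was the longest in both replicates. The RNase H lists of replicate 1 held 473, 3439 and 5391 peaks in NT, 5 min and 60 min, whereas those of replicate 2 held 15790, 50352 and 67188. The RNase H list of NT replicate 1 stood apart as the shortest. Read depth is not part of the lists, so a missing peak is a call that did not pass the threshold and not an absence of hybrids.

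At least 1 DRIP list held a peak in the windows of 8 of the 10 genes, and none of the 12 lists held one at HSPA1A or HSPA1B. Both NT lists held a peak at 5 members, HSPA8, HSPA5, HSP90AA1, HSP90AB1 and DNAJB1, where 45% of all genes had one. After 5 min and again after 60 min of CPT, both lists held a peak at 8 members, where 48.9% and 59% of all genes had one. HSPD1, HSPE1 and HSPH1 were the members that joined at 5 min. A peak in both lists is a description of presence, and no test was made of it.

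The main measure was the share of the window under peaks, called higher where both libraries of one treatment exceeded both of the other. At 60 min, 6 of 10 members were higher than in NT (HSPA8, HSPA5, HSP90AA1, HSPD1, HSPE1 and DNAJB1), where 29.5% of the 16668 genes with a DRIP peak were, and 0 members were lower, where 8% of genes were. At 5 min, 3 members were higher (HSPA5, HSPD1 and HSPE1), where 16.9% of genes were, and 0 were lower, where 17.9% were. From 5 to 60 min, 1 member was higher (DNAJB1), where 24.1% of genes were, and 0 were lower, where 3.74% were. Over the 8 members with a DRIP peak, the median difference from NT was 28.0 percentage points at 60 min and 10.96 at 5 min, against 1.05 and 0 over all genes with a DRIP peak. The 2 comparisons with NT share the NT libraries. With 2 libraries against 2, a two-sided exact permutation test cannot go below p = 0.333, the value of every difference called here, so none of them can pass 0.05.

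**Figure D1:**
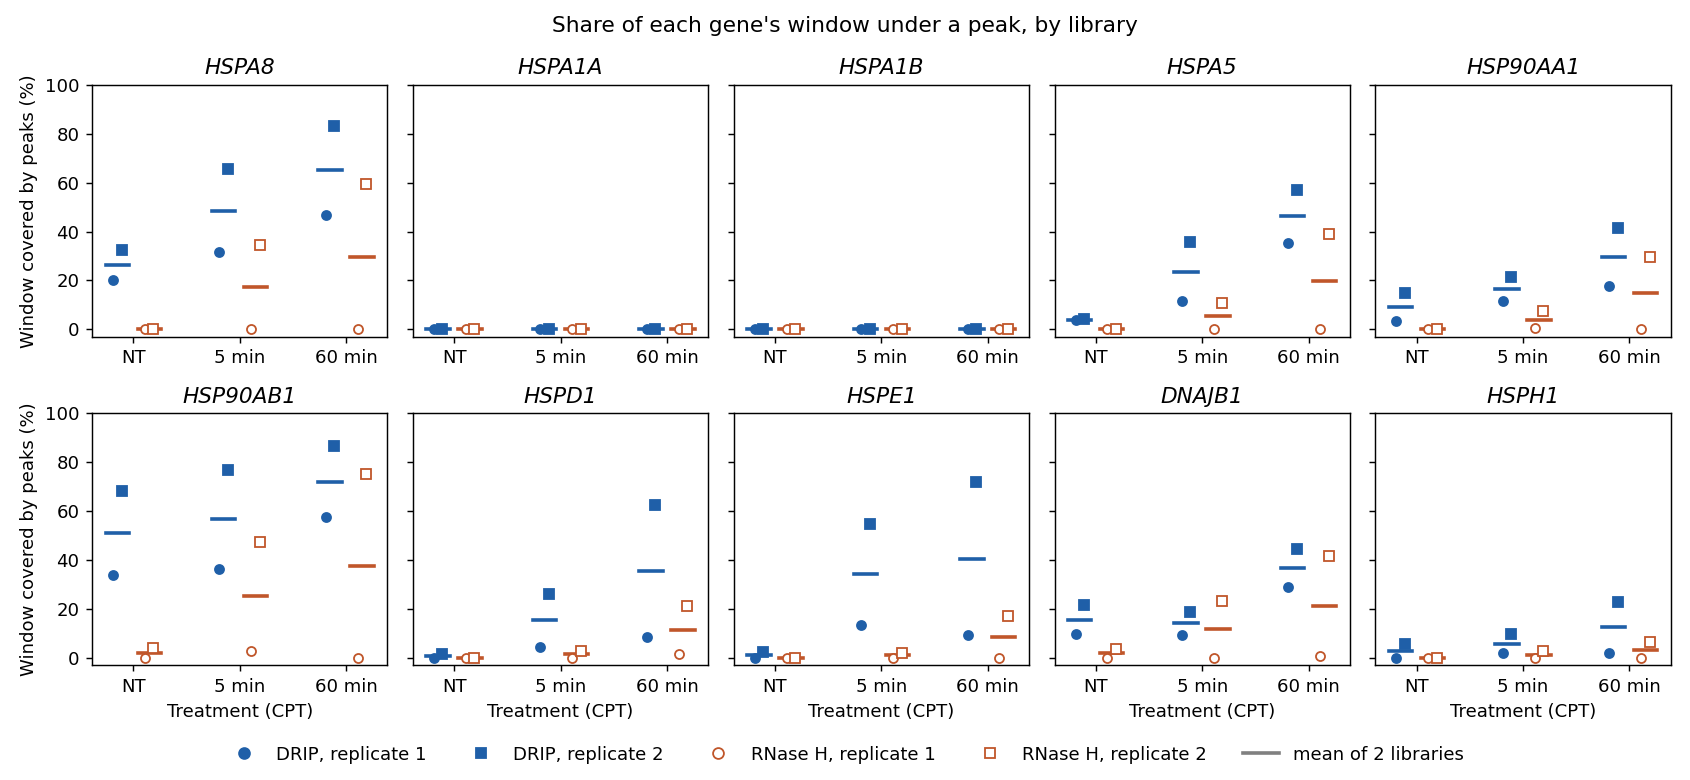
Share of each gene's window covered by peaks (y axis, %) in untreated cells and after 5 or 60 min of CPT (x axis), for DRIP libraries (filled) and RNase H libraries (open), with circles for replicate 1, squares for replicate 2 and bars for their mean. The RNase H points of replicate 2 reached 75.2% at HSP90AB1 at 60 min, while those of replicate 1 lay at or below 2.82%, and HSPA1A and HSPA1B lay at 0 in all 12 lists.

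HSPA8, the constitutive HSP70 of the cytosol that folds new proteins, lies on chromosome 11 from 122928197 to 122933938. Peaks covered 20.4% and 32.5% of its window in NT replicates 1 and 2, 31.6% and 65.6% at 5 min, and 46.9% and 83.3% at 60 min. Both 60-min values were above both NT values, while the 5-min and NT values overlapped. The mean difference from NT at 60 min was 38.7 percentage points, from 26.4% ± 8.56 to 65.1% ± 25.8 (SD, n = 2; exact permutation p = 0.333), a larger difference than that of 99.2% of genes with a DRIP peak. In all 6 DRIP lists a peak ran over the start and into the first part of the gene, and the segments from 1004 bp before to 87 bp after the start and from 1469 to 2589 bp after it were covered in every one. The upstream end of that peak was the same base in all 6 lists, at an Xba I site. Its top peak stood at the 95.6th percentile of fold enrichment or higher within each DRIP list.

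The RNase H lists of NT and of replicate 1 held no peak at HSPA8. The RNase H list of replicate 2, however, covered 34.5% of the window at 5 min and 59.5% at 60 min. At 60 min in replicate 2, 63.2% of the HSPA8 bases under a DRIP peak also lay under an RNase H peak, where 51.0% of all DRIP bases of that library did. When every DRIP peak that touched a peak of its matched RNase H library was removed, the difference at HSPA8 turned to -2.99 percentage points at 60 min. The filter left 0% of the window in 60 min replicate 2, from 32.5% in NT. Replicate 1 was unchanged by it, with 20.4% in NT and 46.9% at 60 min. The part of RNase H-resistant signal in the gain was not tested.

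In the members' windows 10 peak ends stood at the same base in at least 4 DRIP lists, and each of them lay at a site of the restriction enzymes that cut the DNA before immunoprecipitation. The sites below, on the plus strand with the enzyme's recognition letters in capitals, bounded the recurrent peaks of 3 genes.
HSPA8, Xba I, chr11:122933832-122933861: ttcccacctccgTCTAGAacagattcggct
HSPA5, Xba I, chr9:128003524-128003553: gcgaagggcaggTCTAGAaatacaggccgc
HSP90AB1, Eco RI, chr6:44210348-44210377: gtattccctcagGAATTCagagagctaagg
The HSPA8 site ended a peak in 6 DRIP lists and 1 RNase H list. The HSPA5 site, 82 bp after the start, bounded a peak in 4 DRIP lists and no RNase H list. The HSP90AB1 site, 4477 bp before the start, bounded a peak in 4 DRIP and 2 RNase H lists. Of the 468 edges of the members' DRIP peaks, 41.5% lay within 2 bases of a site of the 5 enzymes, where 30.3% of all DRIP edges did. No test was made of this share, and the border of a peak at such a site is also the end of a DNA fragment.

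HSPA5 encodes BiP, the HSP70 of the endoplasmic reticulum, and lies on chromosome 9 from 127997132 to 128003661. Its window was covered to 3.68% and 4.39% in NT, 11.6% and 35.7% at 5 min, and 35.4% and 57.0% at 60 min. Both libraries were above both NT libraries at 5 and at 60 min, while the values at the 2 times overlapped. The mean difference from NT was 19.6 percentage points at 5 min and 42.2 at 60 min (exact permutation p = 0.333 for both), and the latter was the largest among the members. The segment from 82 to 649 bp after the start was free of peaks in NT, covered in all 4 lists of CPT-treated cells, and met by no RNase H peak. A longer stretch past the 3′ end, 9264 to 11030 bp after the start, was gained at 60 min, and an RNase H peak met it in 1 list. Within the lists, the highest peak of the window stood at the 19.8th and 65.5th percentiles in NT and at the 97.7th and 98.7th at 60 min. These were different peaks. Those of 60 min lay past the 3′ end, at 8416 to 11030 bp in replicate 1 and 6840 to 13437 bp in replicate 2. Inside the transcript the highest percentiles at 60 min were 88.0 and 96.7. In NT only replicate 2 had a peak there, at 65.5. RNase H peaks at HSPA5 were limited to replicate 2, where they covered 10.7% of the window at 5 min and 39.2% at 60 min. With DRIP peaks that met an RNase H peak removed, 0% of the window was left in 60 min replicate 2, and the 60-min difference of 13.7 percentage points was no longer called. The window also holds RABEPK, so peaks past the 3′ end cannot be assigned to HSPA5 alone.

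**Figure D2:**
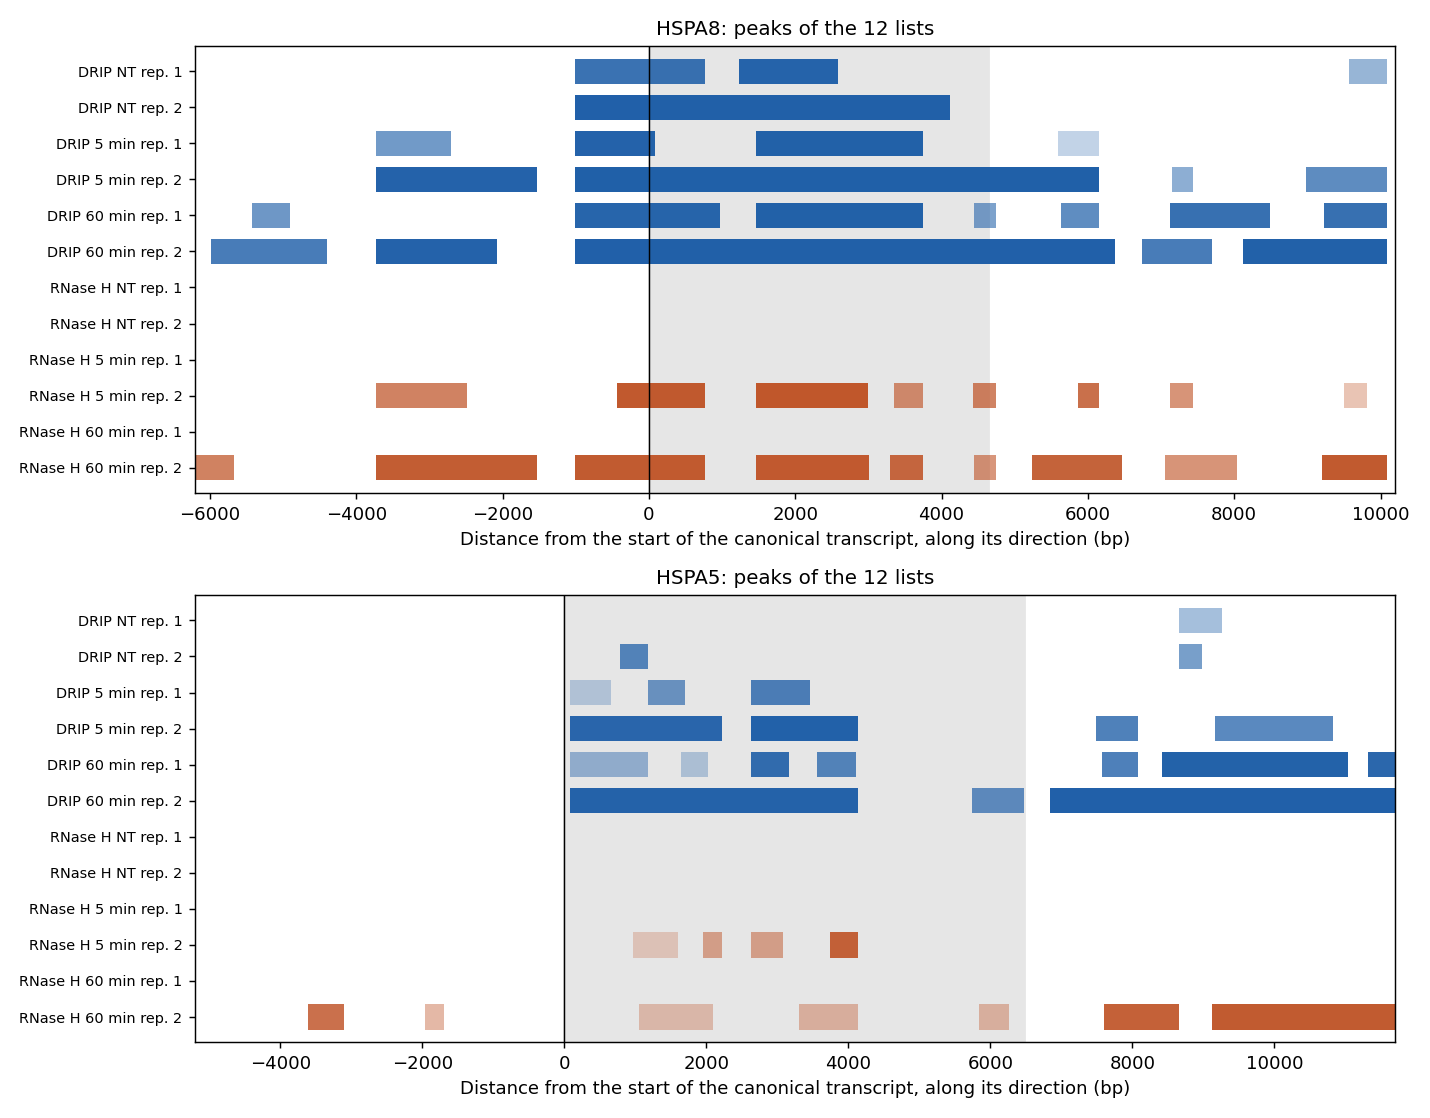
Peaks of the 12 lists at HSPA8 (top) and HSPA5 (bottom), by distance in bp from the start of the canonical transcript (x axis), 1 row per list, DRIP in blue and RNase H in orange; darker bars have a higher within-list percentile of fold enrichment, the grey band is the canonical transcript, and bars are clipped at the plot's edge. The HSPA8 peak began 1004 bp before the start in all 6 DRIP lists, and at HSPA5 a peak began 82 bp after the start in the 4 lists of CPT-treated cells and in no NT list.

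HSPA1A and HSPA1B, the stress-induced HSP70 genes, lie side by side on chromosome 6 from 31783320 to 31785723 and from 31795515 to 31798031. Neither window met a peak in any DRIP or RNase H list. The emptiness was not particular to them in these lists: none of the 96 protein-coding genes within 1 Mb had a DRIP peak, where 82.9% of all genes had one. The nearest DRIP peak lay 1686404 to 1744790 bp past HSPA1B, depending on the list, and 3451018 to 3734639 bp before HSPA1A. The 2 genes are also near copies, identical at 98.7% of 2146 aligned bases, and 73.8% of the 75-base stretches of HSPA1A occur in HSPA1B, so reads from one cannot always be told from the other. Zero peaks here gives no measurement of hybrids at either gene.

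HSP90AB1, the constitutive HSP90 of the cytosol, lies on chromosome 6 from 44213903 to 44221625 and had the highest coverage of the members. Peaks covered 33.9% and 68.2% of its window in NT, 36.5% and 76.9% at 5 min, and 57.5% and 86.7% at 60 min. The treatments overlapped, because replicate 2 was above replicate 1 in each, and the mean difference at 60 min was 21.0 percentage points (exact permutation p = 0.667), with 23.5 within replicate 1 and 18.5 within replicate 2. The segment from 4634 to 8221 bp after the start, across the 3′ end of the gene, was covered in all 6 DRIP lists and met an RNase H peak in 3 lists. Its top peak stood at the 98.8th and 99.4th percentiles of fold enrichment within the NT lists, at the 99.76th and 99.87th at 5 min, and at the 99.90th and 99.97th at 60 min. In the RNase H lists of replicate 2 it stood at the 94.0th percentile in NT, the 99.8th at 5 min and the 99.9th at 60 min. A segment 737 to 1029 bp after the start was gained at both times and met no RNase H peak. The window also holds NFKBIE and SLC35B2.

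HSP90AA1, the stress-inducible HSP90 of the cytosol, lies on chromosome 14 from 102547079 to 102606036, a span that includes long isoforms far upstream of its canonical start. Its window was covered to 3.49% and 14.9% in NT, 11.7% and 21.5% at 5 min, and 17.6% and 41.6% at 60 min. Both 60-min values were above both NT values, by 20.4 percentage points on average (exact permutation p = 0.333), while 5 min and NT overlapped. The segment from 2756 to 4362 bp after the canonical start, inside the gene, was gained at both times and met an RNase H peak in 2 lists. At 60 min the gained stretch that includes it ran over 3105 bp, from 2318 to 5422 bp, and ended at an Ssp I site. The RNase H list of 60 min replicate 2 covered 29.8% of the window, and 70.3% of the DRIP bases there lay under it. With DRIP peaks that met an RNase H peak removed, the 60-min difference was 0.45 percentage points and was no longer called. Without that filter, in a window around the canonical transcript, chosen after seeing the data, the 60-min difference was 45.4 percentage points. In 4 DRIP lists a peak began at a Bsr GI site 52948 bp upstream of the canonical start, near the far end of the annotated span, and the window also holds WDR20.

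HSPD1 and HSPE1, which encode the mitochondrial chaperonin HSP60 and its partner HSP10, stand head to head on chromosome 2, with canonical starts at 198364564 and 198365103. HSPD1 was covered to 0% and 1.58% in NT, 4.50% and 26.1% at 5 min, and 8.72% and 62.5% at 60 min. HSPE1 was covered to 0% and 2.23% in NT, 13.6% and 54.9% at 5 min, and 9.43% and 71.9% at 60 min. For both genes each library of CPT-treated cells was above each NT library. The mean difference at 5 min was 33.1 percentage points at HSPE1, above that of 99.9% of genes with a DRIP peak, and 14.5 at HSPD1 (exact permutation p = 0.333 for both). At 60 min the differences were 39.5 and 34.8 percentage points (exact permutation p = 0.333 for both). In replicate 1, HSPE1 was lower at 60 than at 5 min, while in replicate 2 it was higher.

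The windows of this pair overlap, so their values rest largely on the same peaks and are not separate observations. At 5 min a peak spanned the shared promoter in both replicates, from 895 bp before to 535 bp after the HSPE1 start in replicate 1 and from 2467 bp before to 2351 bp after it in replicate 2. The 995 bp from 895 bp before to 99 bp after the HSPE1 start were gained at 5 min, and of these the part from 170 bp before the start was gained at 60 min as well. No RNase H list held a peak over either stretch. RNase H peaks elsewhere covered at most 21.2% of the HSPD1 window and 16.98% of the HSPE1 window, in 60 min replicate 2. These 2 genes were also the members that were still called higher at 60 min when DRIP peaks meeting an RNase H peak were removed, where 19.1% of all genes were called under that filter.

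**Figure D3:**
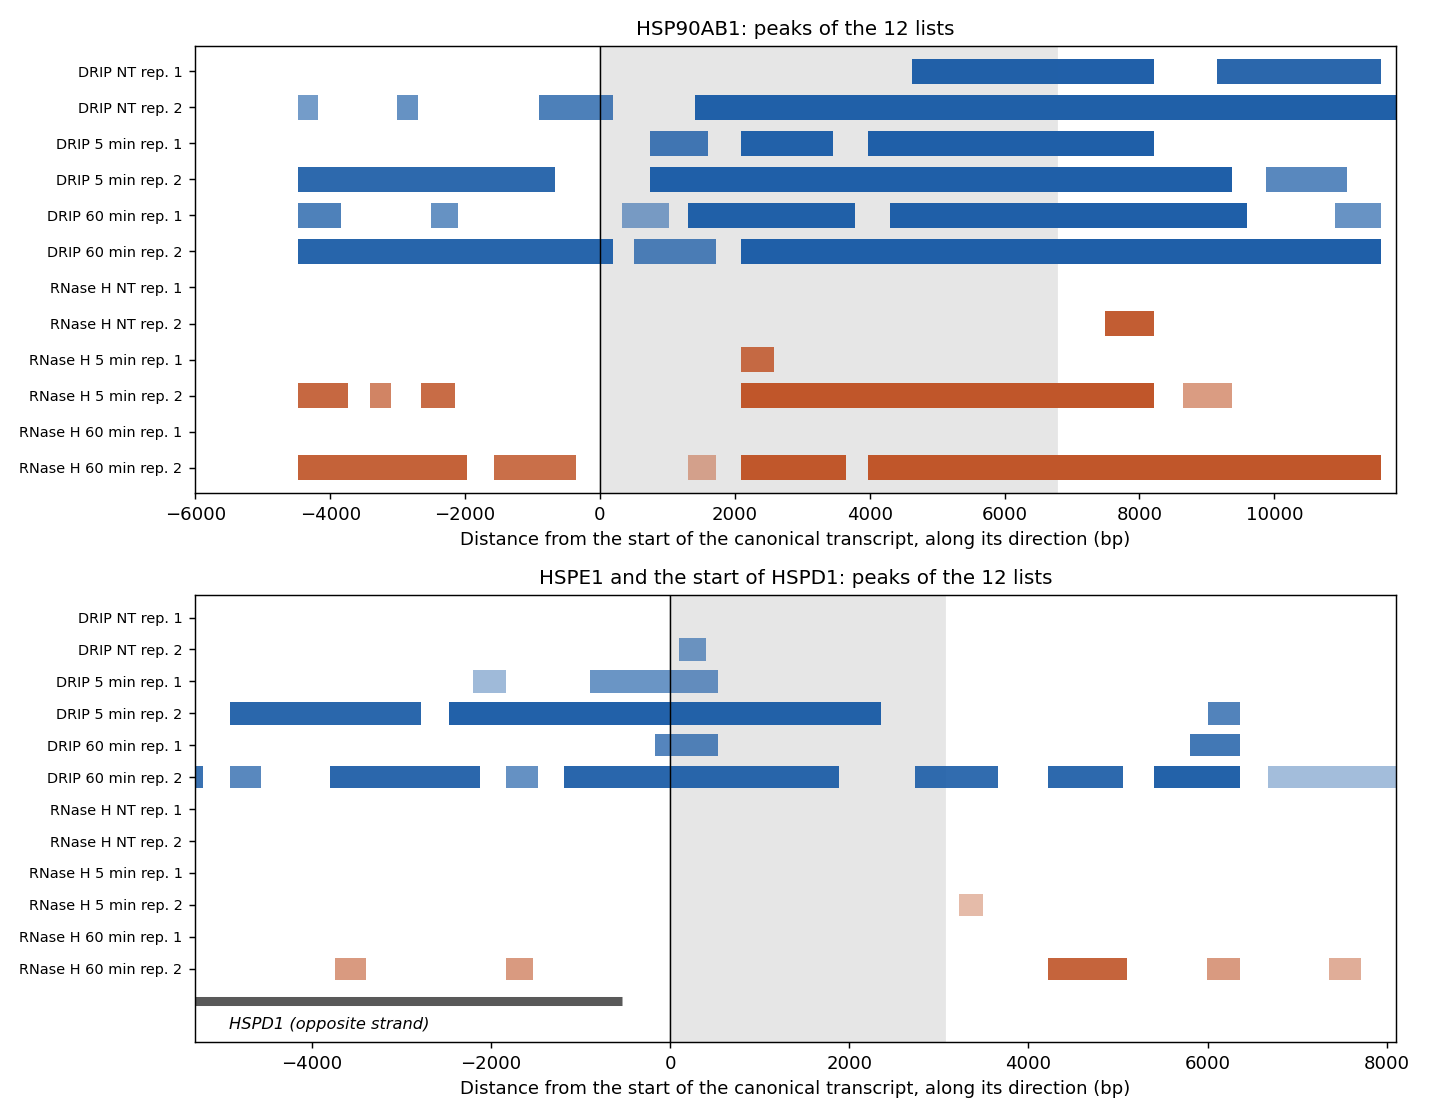
Peaks of the 12 lists at HSP90AB1 (top) and at HSPE1 with the start of HSPD1 (bottom), by distance in bp from the start of the canonical transcript (x axis), drawn as in the plot of HSPA8 and HSPA5; the dark bar is the HSPD1 transcript on the other strand. At HSP90AB1 the segment from 4634 to 8221 bp was covered in all 6 DRIP lists, and over the shared HSPD1 and HSPE1 promoter peaks stood in the 4 DRIP lists of CPT-treated cells with no RNase H peak.

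DNAJB1, the J-domain protein that delivers clients to HSP70 and stimulates its ATPase, lies on chromosome 19 from 14625581 to 14671203. Its window was covered to 9.77% and 21.6% in NT, 9.45% and 18.8% at 5 min, and 29.1% and 44.6% at 60 min. Both 60-min values were above all other values, by 21.1 percentage points over NT and 22.7 over 5 min (exact permutation p = 0.333 for both), whereas the 5-min and NT values overlapped. A peak between 463 and 2856 bp after the canonical start had these same borders, a Hind III and a Bsr GI site, in 3 DRIP lists, and the part from 1914 to 2856 bp was covered in all 6 DRIP lists. The stretch past the 3′ end from 6573 to 7705 bp was gained at both times and met an RNase H peak in 2 lists. At 5 min in replicate 2 the RNase H list covered more of the window than the DRIP list, 23.3% against 18.8%, and at 60 min it covered 41.7%. With DRIP peaks that met an RNase H peak removed, the 60-min difference was 2.05 percentage points and was no longer called. In a window around the canonical transcript, chosen after seeing the data, the 5-min difference was 10.4 percentage points, against -1.57 in the full window. The annotated span reaches 41994 bp upstream of the canonical start, and the window holds TECR as well.

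HSPH1, an HSP110 that acts as nucleotide exchange factor of HSP70, lies on chromosome 13 from 31709110 to 31736525 and had the lowest coverage of the 8. Its window was covered to 0% and 5.89% in NT, 1.87% and 9.63% at 5 min, and 2.16% and 22.8% at 60 min. The treatments overlapped, and the mean differences were 2.80 and 9.54 percentage points (exact permutation p = 0.667 for both). A peak starting 3115 bp after the start, at an Eco RI site, stood in the 4 lists of CPT-treated cells and in no NT list. A peak over the start itself was present in NT replicate 2, where it covered 2203 bp, and in both other DRIP lists of replicate 2.

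**Figure D4:**
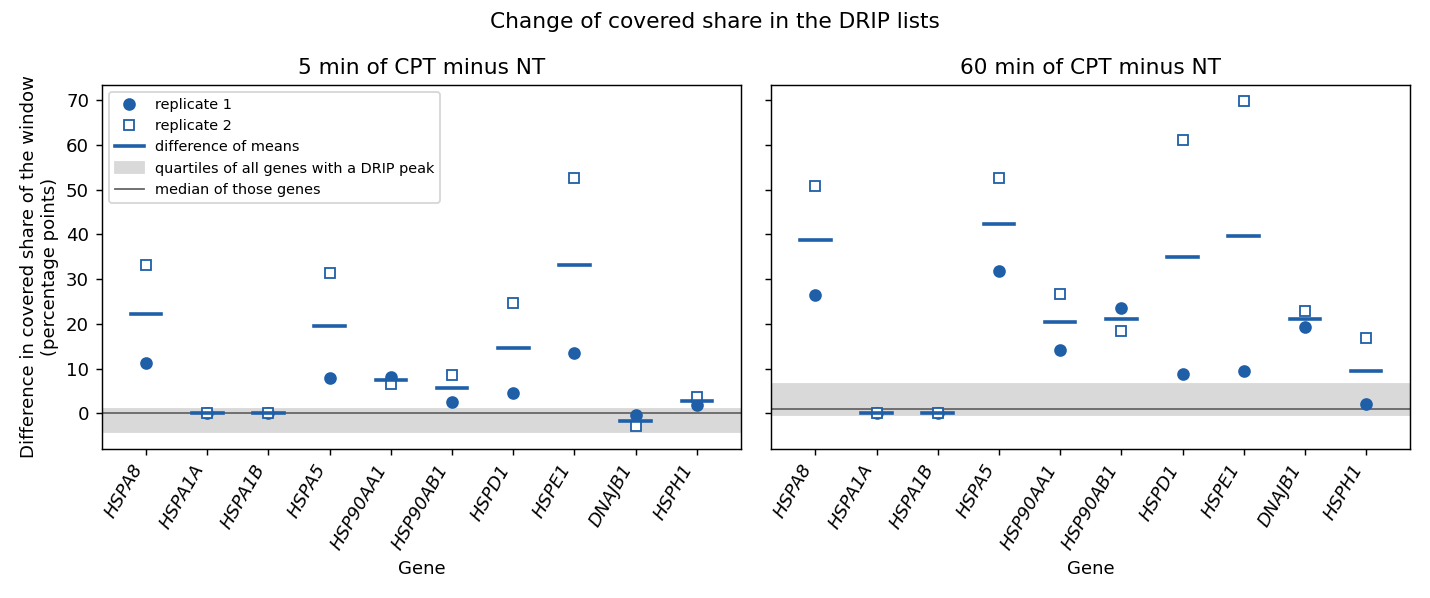
Difference in covered share of the window between CPT and NT (y axis, percentage points) for each member (x axis) at 5 min (left) and 60 min (right), with filled circles for replicate 1, open squares for replicate 2 and bars for the difference of the means; the grey band spans the quartiles and the line the median of all genes with a DRIP peak. At 60 min the means of 8 members lay above the upper quartile of 6.48, and HSPA1A and HSPA1B lay at 0.

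The height of the top peak within each list gave a second measure. From NT to 60 min the percentile of the top peak was higher at 6 members (HSPA5, HSP90AA1, HSP90AB1, HSPD1, HSPE1 and DNAJB1), where 29.9% of genes were higher, and lower at 0, where 11.5% were. At 5 min it was higher at 4 (HSPA5, HSP90AB1, HSPD1 and HSPE1), where 19% were, and lower at 0, where 17.1% were. HSPA8 was not called on this measure, and its top peak stood at the 95.6th and 98.8th percentiles in NT. A list without a peak in the window was counted as 0, as NT replicate 1 was at HSPD1 and HSPE1, so the measure is not independent of coverage. Of the members' 251 DRIP peaks, with a peak shared by a pair of windows counted at each, 54 had their summit in an intron of the canonical transcript, 5 in the 3′ UTR, 1 in the 5′ UTR, 9 in a coding exon, 126 upstream and 56 downstream. Upstream means before the canonical start, so such a summit can still lie inside the annotated gene. Of the 126, DNAJB1 had 49, HSP90AA1 31 and HSPD1 19. The annotated spans of these genes reach 41994, 52655 and 16897 bp upstream of that start.

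**Figure D5:**
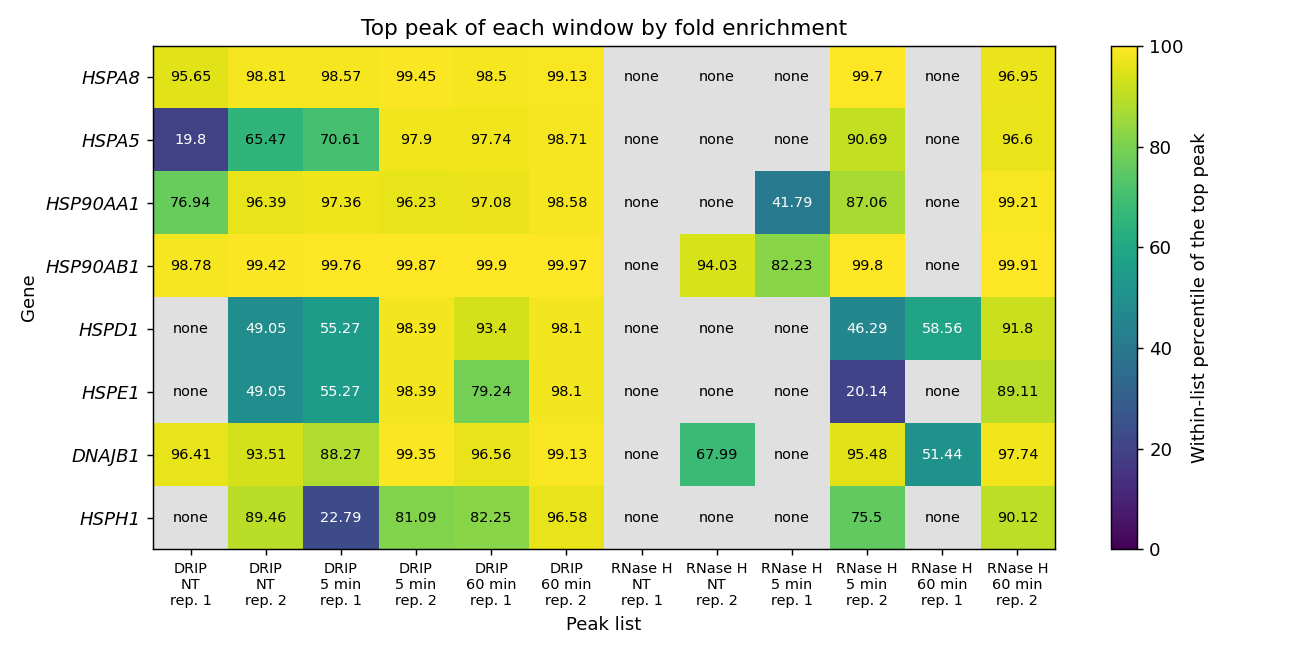
Within-list percentile of fold enrichment of the top peak in the window of each gene (rows) in each of the 12 lists (columns), with yellow for the highest and grey for a list with no peak. HSP90AB1 lay at 98.8 or above in every DRIP list, whereas HSPA5 went from 19.8 in NT replicate 1 to 98.7 in 60 min replicate 2.

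DRIP libraries covered more of the window than their own RNase H library in 6 of 6 pairs at HSPA8, HSPA5, HSP90AA1 and HSP90AB1, and in 5 of 6 at HSPD1, HSPE1, DNAJB1 and HSPH1. At HSPD1, HSPE1 and HSPH1 the remaining pair was that of NT replicate 1, where both lists were empty. An exact sign-flip test of the 6 pairs goes under p = 0.05 only when all 6 go one way. With DRIP larger, 5034 of 17284 genes did so. The two-sided exact permutation test of 6 DRIP against 6 RNase H libraries called 0 members larger in DRIP after Benjamini-Hochberg adjustment over the 17284 genes with a peak in any list, where 0% of genes were called. Without adjustment 3275 genes, and 1 member, had p under 0.05 with DRIP larger. That member was HSP90AB1, covered to 60.0% ± 21.5 in DRIP and 21.6% ± 32.1 in RNase H (SD, n = 6 each; exact permutation p = 0.0411, adjusted p = 0.245), and HSPA8 was next with p = 0.0584 and adjusted p = 0.266. At HSP90AB1 the RNase H values were 0%, 2.82% and 0% in replicate 1 and 4.12%, 47.5% and 75.2% in replicate 2, in the order NT, 5 min and 60 min. Without the NT replicate 1 pair, the exact permutation p was 0.0635 at HSP90AB1 and 0.0714 at HSPA8.

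Other genes of the same machinery, 56 chaperones, co-chaperones and their regulators, gave a reference. At 60 min 24 of the 56 were higher than in NT, where 29.5% of genes with a DRIP peak were, and 2 were lower, where 8% were. At 5 min 15 were higher, where 16.9% of genes were, and 7 were lower, where 17.9% were. Their median difference from NT, over the 55 with a DRIP peak, was 9.64 percentage points at 60 min and 0 at 5 min. The largest higher calls were at CCT6A, a subunit of the cytosolic chaperonin, which went from 1.76% and 3.77% in NT to 16.5% and 53.1% at 5 min and to 23.9% and 62.8% at 60 min. DNAJA1, a J-domain partner of HSC70, went from 0% and 2.99% in NT to 13.3% and 49.98% at 60 min, and CCT4, another chaperonin subunit, from 0% in both NT lists to 16.95% and 34.8% at 5 min. The lower calls included STUB1, the ubiquitin ligase CHIP, which was second by size at both times and covered completely in NT, to 64.7% and 73.6% at 5 min and to 89.2% and 93.1% at 60 min. Ahead of it were HYOU1, an HSP110-like chaperone of the endoplasmic reticulum, with 39.5% and 54.1% in NT and 9.35% and 17.3% at 5 min, and HSPA12B, with 10.6% and 25.9% in NT and 2.98% and 6.05% at 60 min. At 5 min the calls of this wider group went both ways, and the difference between it and the 10 members was not tested.

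The genes whose coverage over the 12 lists, as within-list percentiles, was closest to that of HSP90AB1 were SLC35B2, IER2, HSPB6, ELOVL1 and GRWD1. Their Euclidean distances, each taken over all 12 lists together, were 3.48 to 5.84 percentile points. SLC35B2 lies in the HSP90AB1 window and shares its peaks.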

How the data were processed

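The 18 samples comprise 6 DRIP, 6 RNase H and 6 input libraries. The inputs served as the controls of peak calling and were not analysed here on their own. Reads were trimmed by the authors (Cutadapt) and mapped with BWA to hg19 plus a yeast genome used as spike-in. They then dropped blacklisted and duplicate reads (SAMtools, Picard) and ran MACS2 on every library separately. Versions of these tools are not stated for the DRIP-seq lists in the sources used here. Each deposited peak carries a position, a ratio giving its fold enrichment over input, −log10 p and −log10 q values and a score, and the deposited score entered no result. Fold enrichment was used only as a percentile within its list. Neither read counts nor spike-in factors are part of the lists, so the count-based limma comparison of the study could not be repeated from them. The covered share took the place of that comparison. The study reports read numbers of its libraries in its supplement, and these were not used here.

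Genes came from GENCODE release 44 lifted to GRCh37. Peaks on chromosome Y and unplaced sequences were left out. For each of 20098 protein-coding genes, bases under merged peaks were counted in the gene body plus 5 kb on each side. Distances were counted from the start of the Ensembl canonical transcript, with negative values upstream. A segment was gained where both lists of a treatment and neither NT list covered it. All tests were two-sided and exact, and calls need no scaling between lists. In the main setting the background of higher and lower calls was the 16668 genes with a DRIP peak, while counts of members are out of all 10. Presence of a peak was taken over all 20098 genes. DRIP against RNase H was taken over the 17284 genes with a peak in any list. The 10 members and the 56 other chaperones were chosen with earlier results of these data known. All members are named, and of the others those with the 2 largest differences of mean covered share in each call of a CPT time against NT, together with the 5 genes nearest to the member of highest mean coverage. Promoters printed are those met by DRIP peaks in the most lists, up to 5. An exact p is the share of relabellings or sign flips of these libraries that give a mean difference at least as large. The 6 libraries of each kind in the DRIP against RNase H test span the 3 treatments, so their SDs include differences between treatments. Alternatives covered q, list size, percentiles, window, merging, an RNase H filter, replicates and pairing. Steps were tested on simulated peak lists. Python 3.11.15, NumPy 2.4.6, SciPy 1.17.1 and Matplotlib 3.10.9 were used.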

Additional observations from a re-analysis of the deposited data

Results flagged for a closer look

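DNAJB1 moved in opposite directions at the 2 times: its covered share differed from NT by -1.57 percentage points at 5 min, lower in both replicates, and by 21.1 at 60 min, higher in both. In a window around the canonical transcript, chosen after seeing the data, the 5-min difference was 10.4 percentage points, so the opposite movement was not seen there. From 5 to 60 min the difference was 22.7 percentage points (exact permutation p = 0.333, the lowest possible with 2 libraries against 2). The 5-min values, 9.45% and 18.8%, overlapped those of NT, 9.77% and 21.6%, though that of replicate 1 was below both NT values.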

How the results depend on the processing

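Of 10 counts of members, the number lower at 60 min than in NT was 0 under every alternative, where 7.15% to 33.4% of genes were lower. With DRIP peaks that met an RNase H peak removed, 2 members were higher at 60 min than in NT (19.1% of all genes), 1 was lower at 5 min (24.8%), 0 were higher at 60 than at 5 min (16.5%) and 5 had a peak in both 60-min lists (50.6%), and HSPA8 turned to -2.99 percentage points at 60 min. At HSPA8 this filter left 46.9% of the window in 60 min replicate 1 and 0% in replicate 2. With within-list percentiles of covered share, 8 members were higher at 5 min, where 22.2% of all genes were, and 0 were higher at 60 than at 5 min, where 16.2% were. For 60 against 5 min, 2 were higher with lists of equal size (DRIP lists at the length of the shortest; 26.2% of genes), 2 with 10 kb on each side (25.1%), and 3 with peaks up to 1000 bp apart merged (24.7%). With lists of equal size, 8 members had a larger covered share in DRIP than RNase H, as did 49.7% of genes. There each DRIP list holds 30314 peaks and each RNase H list 473, which by construction favours DRIP. With a canonical transcript window and without the NT replicate 1 pair of libraries, both chosen after seeing the data, no count moved by over 1.5 times.

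Same-numbered DRIP libraries deviated together (correlations of 0.53 to 0.66 over genes), but replicates share only a number, and with 2 libraries a treatment the check tells no more than that replicate 2 covers more. In the paired fit, with the replicate block, 7 members were higher at 5 min (24.9% of genes), 1 was lower at 5 min (30.2%), 8 were higher at 60 min than in NT (45%) and 7 were higher at 60 than at 5 min (53.5%). An exact sign-flip test of the 6 pairs called 0 members larger in DRIP. The exact sign-flip test cannot go below p = 0.03125, which 4 members reached with DRIP larger, as did 5034 of 17284 genes. The lowest adjusted p of the exact sign-flip test was 0.107, so 0 of 17284 genes were called. Without replicate 1 or without replicate 2, counts ran from 7 to 7 for higher at 5 min (42.8% to 44.1% of genes), from 1 to 1 for lower at 5 min (46.5% to 49.5%), from 7 to 8 for higher (66.9% to 80.1%) and from 0 to 1 for lower at 60 against 5 min (14.1% to 27.3%), and from 5 to 8 for a peak in NT (50.1% to 62%). Depth limits every zero: a list can lack a peak because it is short.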
